A study of Mus musculus with 6 samples.

Results

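The immunoglobulin heavy chain variable genes (Ighv) were taken as all rows of the deposited gene tables with the biotype IG_V_gene and a name starting with Ighv, which gave 113 of 41325 gene rows. They were measured in 6 libraries of bulk RNA-seq. The mice were females of the outbred ICR strain, bought at 10 weeks of age and given 7 days of habituation. All mice of both groups received the antimetabolite 5-fluorouracil (5-FU), injected into the peritoneum at 20 mg/kg/day on 2 occasions a week over 3 weeks. The elemental diet group (3 libraries) also received by mouth Elental, a liquid diet of amino acids, sugars and little fat, at 1.6 kcal in 0.8 mL per day, and the saline group (3 libraries) received the same volume of saline. No group without 5-FU was analysed here. The labels give 3 mice per group but do not say whether each library is 1 mouse, so p-values measure only the spread between these libraries.

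The tissue is labelled salivary gland, whereas the extraction protocol speaks of fibroblasts or a keratinocyte. Of 13 salivary gland genes, 5 had no read in any library and 8 were under 1 CPM in every library (CPM, reads scaled to 1000000 reads of the library); the water channel gene Aqp5 had 6 reads in all 6 libraries together, and Smgc, Pip, Bpifa1, Prb1 and Dcpp1, which encode secreted salivary proteins, had none. Markers of blood cells were abundant and differed between the groups. Summed B cell markers (6 genes) ranged from 602 to 648 CPM with elemental diet and from 4275 to 4443 with saline, plasma cell markers (7 genes) from 448 to 499 and from 1592 to 1758, and T cell markers (6 genes) from 38.0 to 42.3 and from 283 to 352. Erythroid markers (6 genes) ranged from 35206 to 35828 CPM with elemental diet and from 2196 to 3432 with saline, neutrophil precursor markers (5 genes) from 131 to 153 and from 2.43 to 2.86, and proliferation markers (4 genes) from 2714 to 3276 and from 98.8 to 104. Of the 7 plasma cell markers 6 were lower with elemental diet and 1, Sdc1, was higher. All of these marker sums differed between the groups, and their part in the results on Ighv genes was not tested. The libraries held 29053287 to 33073125 gene reads, of which 86.0% to 87.7% were assigned uniquely.

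Each antibody heavy chain is encoded by a V gene that is joined to a D and a J segment during B cell development and is then spliced to a constant gene such as Ighm. A B cell and its descendants transcribe mainly the V gene they have joined, so the V gene reads of a tissue describe which V genes its B cells and plasma cells use and how much they transcribe them. In bulk libraries, fewer cells that use a V gene and less RNA per cell cannot be told apart.

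All 113 Ighv genes lie on the minus strand of chromosome 12, from 113578504 to 116000461 in the files' coordinates (2.42 Mb), and each of these coordinates is the same as in GENCODE M21 on the mouse build GRCm38. Ighv5-2 is the member nearest to the D, J and constant genes and Ighv1-85 the farthest. GENCODE gives 111 of the members 2 exons, a short leader exon and a V exon with a median length of 305 bases, separated by an intron of 76 to 176 bases. The number after Ighv is the family, of which there were 16, from 1 to 53 members in size. The V exons are alike: their identity was 85.2% in the median pair within a family and 60.3% in the median pair from different families, and the nearest relative of a member shared 95.1% of its bases in the median.

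The sequences below are shown because members this alike were higher with elemental diet in one case and lower in the other. For 14 of the 89 members that passed the test described further on, the most similar V exon in the locus belonged to a member that passed it in the opposite direction. With 78 of the 89 lower and 11 higher, opposite pairs also arise in a random pairing, and whether 14 differs from that was not tested. The first 300 bases of the V exon are given 5′ to 3′ for 4 such pairs, from GENCODE M21 transcripts on GRCm38. Bases that differ within each pair are in capitals. These are reference sequences, and the alleles of the ICR mice can differ from them.

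The pair Ighv11-2, which rose, and Ighv11-1, which fell, differed at 4 of 307 bases (98.7% identity):
Ighv11-2, chr12:114048248-114048547, minus strand: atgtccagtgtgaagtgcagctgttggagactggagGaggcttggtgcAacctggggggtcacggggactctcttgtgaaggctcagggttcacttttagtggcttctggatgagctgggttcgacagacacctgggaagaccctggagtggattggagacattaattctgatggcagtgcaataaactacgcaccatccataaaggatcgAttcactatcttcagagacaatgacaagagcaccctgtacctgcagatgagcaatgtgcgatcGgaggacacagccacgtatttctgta
Ighv11-1, chr12:113981886-113982185, minus strand: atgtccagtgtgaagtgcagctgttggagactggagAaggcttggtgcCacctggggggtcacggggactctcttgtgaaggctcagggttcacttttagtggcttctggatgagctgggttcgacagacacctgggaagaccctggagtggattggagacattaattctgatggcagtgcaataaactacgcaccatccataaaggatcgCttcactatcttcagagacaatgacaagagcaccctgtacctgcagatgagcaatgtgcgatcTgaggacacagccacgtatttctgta

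The pair Ighv1-75, which rose, and Ighv1-84, which fell, differed at 12 of 305 bases (96.1% identity):
Ighv1-75, chr12:115833955-115834254, minus strand: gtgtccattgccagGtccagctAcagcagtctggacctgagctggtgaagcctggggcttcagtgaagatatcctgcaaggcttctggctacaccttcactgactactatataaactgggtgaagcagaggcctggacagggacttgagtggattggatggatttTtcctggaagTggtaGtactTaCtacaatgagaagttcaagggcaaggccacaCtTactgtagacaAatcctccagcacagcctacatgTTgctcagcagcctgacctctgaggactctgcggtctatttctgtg
Ighv1-84, chr12:115980707-115981006, minus strand: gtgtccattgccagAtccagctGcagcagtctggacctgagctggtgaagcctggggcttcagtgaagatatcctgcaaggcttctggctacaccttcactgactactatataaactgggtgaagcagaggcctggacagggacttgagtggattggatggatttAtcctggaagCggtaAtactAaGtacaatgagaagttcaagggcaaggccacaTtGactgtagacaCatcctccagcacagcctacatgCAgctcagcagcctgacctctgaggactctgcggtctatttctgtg

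The pair Ighv1-72, which rose, and Ighv1-64, which fell, also differed at 12 of 305 bases (96.1% identity):
Ighv1-72, chr12:115757989-115758288, minus strand: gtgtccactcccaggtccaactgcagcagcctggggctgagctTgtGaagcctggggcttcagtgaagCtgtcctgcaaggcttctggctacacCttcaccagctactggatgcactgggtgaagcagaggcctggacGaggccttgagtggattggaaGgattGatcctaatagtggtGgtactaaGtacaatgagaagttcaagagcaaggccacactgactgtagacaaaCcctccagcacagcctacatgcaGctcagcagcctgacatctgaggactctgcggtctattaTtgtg
Ighv1-64, chr12:115507550-115507849, minus strand: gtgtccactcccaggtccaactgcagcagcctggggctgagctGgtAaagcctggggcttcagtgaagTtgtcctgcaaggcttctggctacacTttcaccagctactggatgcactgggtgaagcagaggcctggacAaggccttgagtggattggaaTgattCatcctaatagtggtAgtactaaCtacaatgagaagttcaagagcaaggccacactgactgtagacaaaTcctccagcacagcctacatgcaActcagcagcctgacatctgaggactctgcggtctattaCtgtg

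The pair Ighv1-54, which rose, and Ighv1-63, which fell, differed at 22 of 305 bases (92.8% identity):
Ighv1-54, chr12:115193680-115193979, minus strand: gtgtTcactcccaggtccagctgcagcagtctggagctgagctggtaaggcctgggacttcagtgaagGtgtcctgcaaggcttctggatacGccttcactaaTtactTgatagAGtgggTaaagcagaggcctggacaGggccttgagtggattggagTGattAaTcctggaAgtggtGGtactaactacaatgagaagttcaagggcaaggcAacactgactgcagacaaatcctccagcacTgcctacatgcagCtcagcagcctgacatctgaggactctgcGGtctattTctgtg
Ighv1-63, chr12:115495630-115495929, minus strand: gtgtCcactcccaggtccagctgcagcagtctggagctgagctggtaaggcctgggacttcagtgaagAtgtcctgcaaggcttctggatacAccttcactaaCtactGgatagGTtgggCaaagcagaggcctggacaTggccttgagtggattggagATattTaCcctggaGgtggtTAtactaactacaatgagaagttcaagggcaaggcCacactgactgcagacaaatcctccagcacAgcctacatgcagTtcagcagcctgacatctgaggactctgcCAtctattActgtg

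The summed level of the Ighv genes was 4.29-fold lower with elemental diet. The 3 elemental diet libraries held 11818, 14120 and 10616 Ighv reads, or 434, 480 and 415 CPM after scaling, with a mean of 443 ± 33.5 CPM (SD, n = 3). The saline libraries held 61371, 64463 and 64899 Ighv reads, or 1772, 1934 and 1996 CPM, with a mean of 1901 ± 116 (SD, n = 3). The groups did not overlap, and the log2 ratio of the means was -2.10 (p = 0.1, two-sided exact permutation test; adjusted p = 0.111 over 10 measures). For 3 libraries against 3, 0.1 is the smallest p this test can give, so none of the library measures below can pass 0.05.

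The fall of the Ighv sum was smaller than that of Ighm and of the kappa light chain V genes. Ighm, the constant gene of immunoglobulin M, went from 8717 ± 343 CPM with saline to 1084 ± 41.1 with elemental diet (log2 fold change -3.01, SE 0.05, edgeR adjusted p = 6.7e-15). The 100 kappa light chain V genes (Igkv) went from 3397 ± 270 CPM in sum to 396 ± 24.4, an 8.58-fold difference. Per Ighm read, there were 0.401, 0.426 and 0.397 Ighv reads with elemental diet and 0.211, 0.223 and 0.220 with saline. Per Igkv read, the ratio was 1.07, 1.16 and 1.13 with elemental diet and 0.557, 0.584 and 0.540 with saline, so the heavy chain V reads outnumbered the kappa V reads in every elemental diet library and in no saline library. Both ratios were higher in all 3 elemental diet libraries than in any saline library (p = 0.1 each, exact permutation test; adjusted p = 0.111). Set against all 8 heavy chain constant genes, the Ighv reads came to 0.186 ± 0.0114 per read with elemental diet and 0.127 ± 0.00369 with saline, a smaller gap than against Ighm alone.

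**Figure D1:**
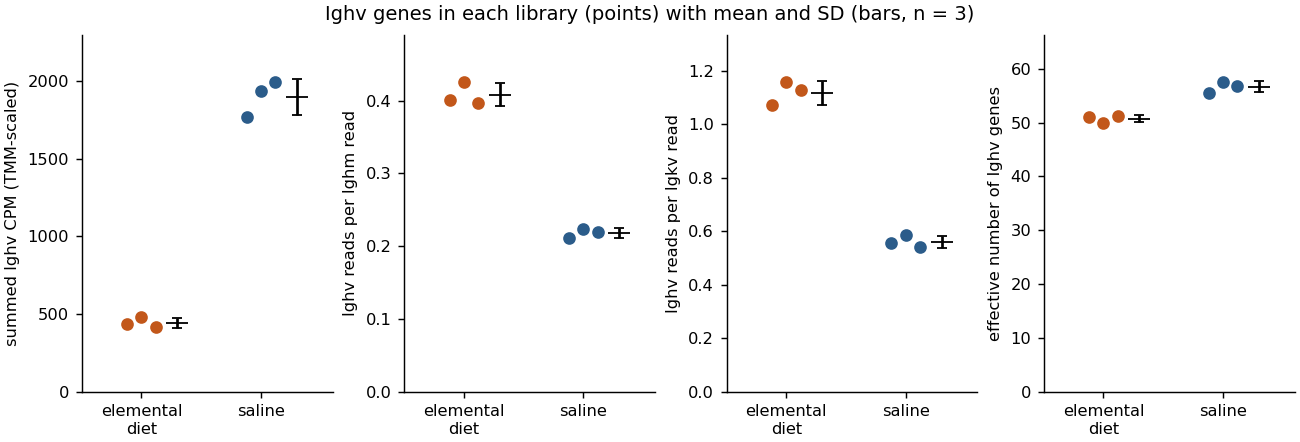
Summary measures of the Ighv genes in each library (points; bars are the mean and SD of 3 libraries): summed CPM, reads per Ighm read, reads per Igkv read and the effective number of genes in use. The summed level was near 443 CPM with elemental diet and near 1901 with saline, while both ratios were higher in all elemental diet libraries.

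Of the 113 members, 98 had enough reads to be tested and 15 did not, the latter with at most 56 reads over all 6 libraries. With elemental diet 78 of the 98 were lower and 11 higher (edgeR, adjusted p under 0.05 over all 18303 genes tested), and 9 did not pass. This contrast was broad: 40.2% of all tested genes passed as lower and 38.0% as higher. Of the Ighv genes tested, 79.6% passed as lower and 11.2% as higher. The library groups did not overlap for 90 of the 98 members, beside 81.0% of all tested genes.

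The sizes of the changes ranged widely. More than 2-fold lower were 73 members, or 74.5% of the 98, beside 23.7% of all tested genes. More than 10-fold lower were 37, or 37.8%, beside 1.67%. More than 2-fold higher were 9 members, or 9.18%, beside 19.1% of all tested genes. More than 10-fold higher were 4, or 4.08%, beside 3.03%. The median log2 fold change of the 98 members was -2.46, with a width of 3.44 between the quartiles and a range from -9.63 to 6.56; the lowest is a fitted value of a gene without reads in 1 group and depends on the fit. Over all tested genes the median was -0.08 and the width 1.71. The 97 tested Igkv genes were all lower, with a median of -3.91 and a width of 2.49, and their changes ran from -11.50 to -0.34, so none of them reached a higher level with elemental diet. Among the Ighv genes called lower, 40 fell by more than Ighm and 38 by less.

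The 8 largest rises included 4 genes that were nearly silent with saline. Ighv9-3, a member of the small family 9, had 234, 402 and 250 reads with elemental diet and 3, 6 and 2 with saline (edgeR log2 fold change 6.56, SE 0.32, adjusted p = 2.5e-10). Ighv1-9 had 211, 273 and 203 reads with elemental diet and 6, 2 and 5 with saline (5.96, SE 0.29, adjusted p = 1.6e-10). Ighv1-54 had 552, 765 and 858 reads with elemental diet and 11, 11 and 24 with saline (5.84, SE 0.31, adjusted p = 2.2e-07). These 3 genes lie far apart in the locus, and in each the lowest elemental diet library held far more reads than the highest saline library. Ighv4-1, the only member of family 4, had 438, 386 and 256 reads with elemental diet and 12, 11 and 17 with saline (5.02, SE 0.25, adjusted p = 2.4e-10). Ighv1-58 had 162, 102 and 69 reads with elemental diet and 21, 13 and 28 with saline (2.70, SE 0.36, adjusted p = 1.7e-05). In all 5 of these members every saline library was under 1 CPM and every elemental diet library above it. The share of all tested genes with this pattern was not counted, so the 5 cannot be set against it.

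The other 6 that rose were already present with saline. Ighv1-72, the V gene of the well-known response of reference mice to nitrophenyl haptens, had 1041, 1147 and 753 reads with elemental diet and 308, 381 and 486 with saline (edgeR log2 fold change 1.60, SE 0.20, adjusted p = 2.4e-04). Only 45.8% of its reads were unique to it, and its nearest relative, Ighv1-62-3, with 99.0% identity and 27 reads in all, was too low to test. With unique reads alone Ighv1-72 had 502, 537 and 372 reads against 136, 145 and 192, and its change was 1.82. Ighv11-2, a V gene known from B-1a cells that bind phosphatidylcholine, had 86, 78 and 56 reads with elemental diet and 44, 33 and 34 with saline (1.27, SE 0.26, adjusted p = 4.5e-04). Its twin Ighv11-1, shown above with 4 differing bases, had 3, 0 and 0 reads against 340, 276 and 235. The 2 members of family 11 thus exchanged rank by assigned reads. Ighv11-1 held most of the family's reads in every saline library and Ighv11-2 in every elemental diet library. Of the Ighv11-1 and Ighv11-2 reads, 81.0% and 85.5% were unique. The mice were ICR, whose alleles can differ from the reference, and the effect of this on the division was not tested.

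Ighv1-75 had 59, 43 and 53 reads with elemental diet and 35, 19 and 22 with saline (1.33, SE 0.32, adjusted p = 0.0017). Its near copy Ighv1-84 went the other way, with 9, 4 and 13 reads against 1054, 1129 and 1193 (-6.71, SE 0.21, adjusted p = 7.6e-12). Ighv1-76 rose by 0.85 and Ighv1-81 by 0.87 on the log2 scale, the smallest changes of the 11. Ighv1-85, at the far end of the locus, had 36, 101 and 45 reads with elemental diet and 35, 35 and 32 with saline (1.10, SE 0.34, adjusted p = 0.0099). Without the second elemental diet library, which held the 101 reads, its change was 0.61 and the adjusted p 0.10. It also missed the threshold when exon reads were counted (0.57, adjusted p = 0.16) and without composition scaling (0.79, adjusted p = 0.052).

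The deepest falls left members with almost no reads. Ighv5-12-4 had no read with elemental diet and 107, 116 and 104 with saline, which is at least 89.2-fold lower against a floor of 3 reads over the group. Ighv1-34, the third most used member with saline, had 3, 7 and 0 reads with elemental diet and 2741, 2913 and 2601 with saline (edgeR log2 fold change -9.35, SE 0.20, adjusted p = 8.7e-13). Ighv2-7 had 1 read with elemental diet and 127, 152 and 114 with saline, a ratio of 322 (95% interval from counting alone, 57.4 to 12739). For these members the elemental diet libraries lie at or near the floor of 3 reads, about 0.1 CPM in a library of this depth, so the size of the fall is known only roughly.

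Ighv11-1 fell 232-fold by the same ratio (79.2 to 1128) and Ighv1-43, with 0, 0 and 3 reads against 154, 117 and 162, 118-fold (40.2 to 575). Ighv8-11 had 2 reads with elemental diet and 77, 82 and 76 with saline, a ratio of 96.2 (26.3 to 799). Ighv1-37 had 2, 16 and 4 reads with elemental diet and 1121, 1080 and 1042 with saline (-6.90, SE 0.27, adjusted p = 2.1e-09). In all, 23 members were under 1 CPM in every elemental diet library and over 1 CPM in every saline library, beside 3.79% of all tested genes.

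**Figure D2:**
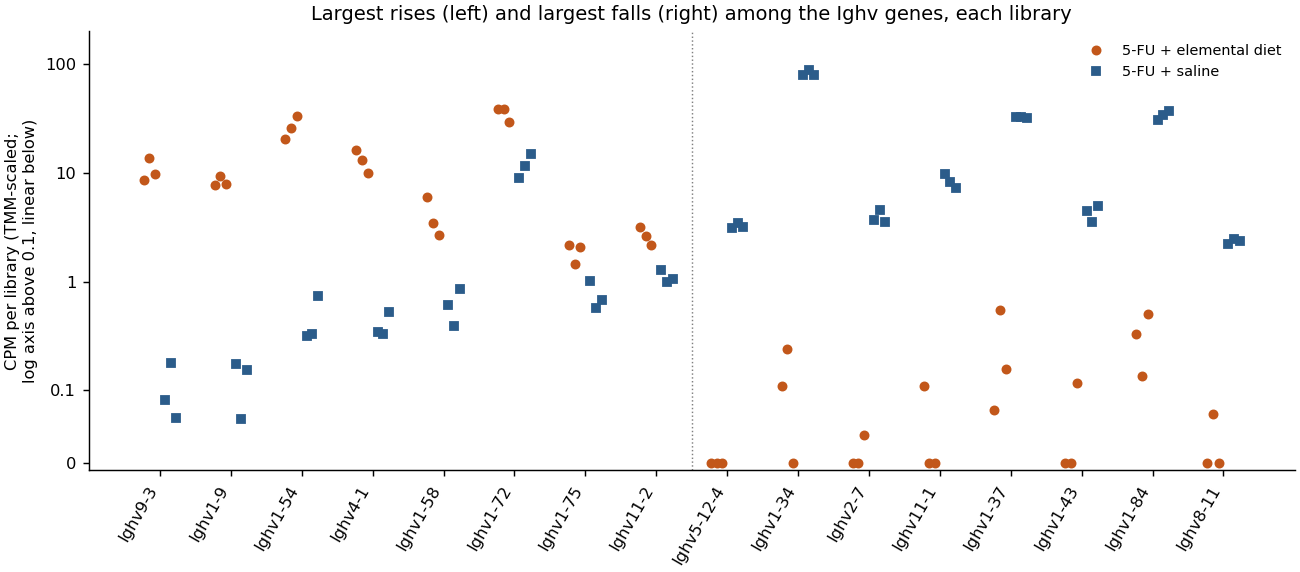
CPM in each library for the 8 largest rises (left) and the 8 largest falls (right) among the Ighv genes, on an axis that is logarithmic above 0.1 CPM and linear below. Circles are elemental diet libraries and squares saline libraries, and the groups do not overlap for any of the 16 genes.

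Some of the 9 members that did not pass the test were well covered. Ighv10-3 had 230, 170 and 178 reads with elemental diet and 214, 251 and 265 with saline (-0.05, SE 0.17, edgeR adjusted p = 0.81). Ighv8-12 had 177, 152 and 161 against 251, 220 and 201 (-0.16, SE 0.15, adjusted p = 0.34), and Ighv2-3 had 88, 95 and 59 against 92, 73 and 65 (0.36, SE 0.23, adjusted p = 0.16). Against a summed Ighv level that fell 4.29-fold, these 3 differed by fitted folds of 1.03, 1.12 and 1.28. Ighv1-80 differed more between libraries of 1 group, with 310, 686 and 216 reads with elemental diet and 333, 341 and 450 with saline (0.36, SE 0.44, adjusted p = 0.49). Ighv1-55 had 490, 296 and 215 against 657, 678 and 940 (-0.90, SE 0.35, adjusted p = 0.067). Ighv1-36 had 56, 4 and 21 reads with elemental diet and 7, 12 and 8 with saline (1.88, SE 0.78, adjusted p = 0.051), and its groups overlapped. Some of these calls depended on the setting: Ighv8-12 and Ighv1-55 were called lower with upper quartile scaling and without composition scaling, and Ighv1-55 also with DESeq2 and without the first elemental diet library. Ighv1-36 was called higher with RLE scaling, with DESeq2 and without the second elemental diet library.

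The members most used in the 2 groups were largely different genes. With saline the most used member of every library was Ighv7-3, with 4378, 4453 and 4976 reads or 7.24 ± 0.390% of the Ighv reads (SD, n = 3). It was followed by Ighv2-9 with 5.32 ± 0.339% and Ighv1-34 with 4.33 ± 0.281%, and then by Ighv5-9, Ighv1-82, Ighv5-16, Ighv2-9-1 and Ighv14-3. Per length, the deposited RPKM values, which are scaled to gene length and library size, gave the same first 3, with 242 for Ighv7-3, 231 for Ighv2-9 and 187 for Ighv1-34. All 8 of these were called lower with elemental diet, beside 79.6% of the tested Ighv genes and 40.2% of all tested genes. They were picked for high levels with saline, a choice that favours falls. Ighv7-3 kept 112, 179 and 140 reads (log2 fold change -4.72, SE 0.12, edgeR adjusted p = 9.5e-11) and Ighv2-9 kept 80, 160 and 71 (-4.74, SE 0.20, adjusted p = 5.1e-07).

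With elemental diet the most used members were Ighv1-72, at 8.01 ± 0.864% of the Ighv reads, and Ighv1-54, at 6.06 ± 1.79% (SD, n = 3). With saline the same genes took 0.614 ± 0.125% and 0.0240 ± 0.0113%. Ighv1-72 was first in 2 elemental diet libraries and Ighv1-54 in the third, and per length they were also first, with RPKM values of 65.2 and 40.9. This order rests on shared reads, since 45.8% of the Ighv1-72 reads were unique. By unique reads, Ighv1-54 (551, 762 and 856) and Ighv5-17 (518, 596 and 488) were both ahead of Ighv1-72 in every elemental diet library. The next 6 by CPM were Ighv5-17, Ighv1-4, Ighv1-26, Ighv1-64, Ighv1-80 and Ighv4-1. Of these, Ighv5-17 had 521, 601 and 489 reads with elemental diet and 938, 1128 and 838 with saline, a fall of 1.48-fold (adjusted p = 1.6e-04), far below that of the summed level. Ighv1-4 fell 1.55-fold (adjusted p = 8.2e-05), Ighv1-64 2.71-fold (adjusted p = 0.0038) and Ighv1-26 1.62-fold (adjusted p = 0.0014). The fall of Ighv1-26, with 65.0% of its reads unique, was not called with unique reads alone (log2 fold change -0.14, adjusted p = 0.43). Among the 20 most used members of each group, 4 were common to both.

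**Figure D3:**
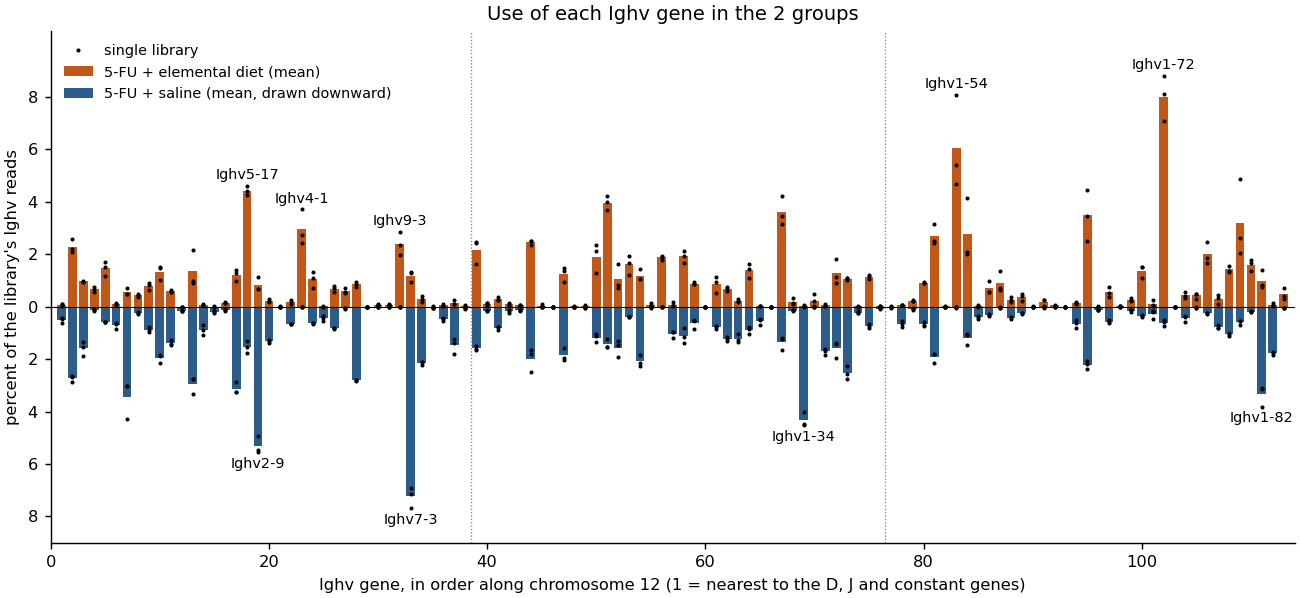
Percent of the library's Ighv reads in each of the 113 members, in order along chromosome 12 from the end nearest to the D, J and constant genes. Bars are means of 3 libraries, upward for elemental diet and downward for saline, points are single libraries, and dotted lines part the proximal, middle and distal sections. Ighv7-3 led with saline at 7.24% and Ighv1-72 with elemental diet at 8.01%.

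Over all 113 members, the shares of 2 saline libraries correlated with Pearson's r from 0.978 to 0.991, those of 2 elemental diet libraries from 0.915 to 0.944, and those of libraries from different groups from 0.153 to 0.196. These r values are descriptions across genes, which are not independent and share each library's depth. In reads, 5.10% to 8.11% of the Ighv reads would have to move between genes to make 2 saline libraries equal, 11.2% to 14.9% for 2 elemental diet libraries, and 49.2% to 51.3% for libraries of different groups. Libraries of 1 group differed by more than sampling noise, with chi-square values of 6.4 to 11.6 per degree of freedom, against 182 to 211 between the groups. For the Igkv genes the values between groups were nearer, with r from 0.627 to 0.739 and 32.4% to 38.5% of the reads apart.

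Use was spread over many members in both groups. The effective number of members in use, the exponent of the Shannon entropy of their shares, was 51.0, 49.9 and 51.3 with elemental diet and 55.6, 57.6 and 56.8 with saline (p = 0.1, exact permutation test; adjusted p = 0.111). With unique reads alone this difference shrank from -5.94 to -1.16 (p = 0.3, exact permutation test). The 10 most used members took 41.7 ± 1.10% of the Ighv reads with elemental diet and 37.8 ± 0.950% with saline. The most used member took 8.81%, 8.12% and 8.08% in the elemental diet libraries and 7.13%, 6.91% and 7.67% in the saline libraries, and with unique reads alone the order of the groups turned (-1.56 percentage points, p = 0.4, exact permutation test). Members with at least 4 reads numbered 86, 91 and 90 with elemental diet and 102, 103 and 104 with saline, at Ighv totals about 5.22-fold apart.

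By family, 12 of the 15 families with enough summed reads were lower with elemental diet and 2 higher, beside 40.2% and 38.0% of all genes tested when families replace their members. Sums over a family do not depend on how reads were divided among its near copies. Family 1, with 53 members, held the most reads in both groups: 260, 289 and 245 CPM with elemental diet and 756, 854 and 863 with saline (log2 fold change -1.64, SE 0.07). Its 48 tested members comprised 35 lower, 8 higher and 5 not called, and its share of the Ighv reads was 59.7 ± 0.590% with elemental diet and 43.4 ± 0.740% with saline. The family 1 share was higher in all 3 elemental diet libraries (p = 0.1, exact permutation test; adjusted p = 0.133 over 16 families).

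Families 2, 5, 7 and 14 were among those that lost share. Family 7, whose member Ighv7-1 is known from antibodies to phosphorylcholine, fell furthest among those with over 100 CPM, from 159, 170 and 188 CPM with saline to 5.18, 7.44 and 6.76 (-4.74, SE 0.11). Its share went from 9.06 ± 0.330% to 1.46 ± 0.233%. Family 14 fell from 6.44 ± 0.0459% of the reads to 2.01 ± 0.232% (log2 fold change -3.78, SE 0.10), and all 4 of its members passed as lower. Family 2 fell from 15.1 ± 0.603% to 7.06 ± 0.794% (-3.20, SE 0.09), with 8 of 9 members lower. Family 5 went from 13.4 ± 0.621% to 10.2 ± 0.633% (-2.50, SE 0.07), with all 10 members lower. Ighv7-1 itself had 26, 26 and 31 reads with elemental diet and 805, 903 and 824 with saline.

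Families 4 and 9 were the 2 that rose. Family 4 is Ighv4-1 alone. Family 9 had 9.99, 14.6 and 10.9 CPM with elemental diet and 2.57, 3.45 and 3.48 with saline (log2 fold change 1.90, SE 0.18), but its members parted: Ighv9-3 rose while Ighv9-4, with 17, 11 and 14 reads against 83, 106 and 102, fell (-2.49, SE 0.29). The untested Ighv9-2 had 9, 8 and 9 reads with elemental diet and none with saline. Family 10 fell least among the families called lower (-0.94, SE 0.12), and its share went from 1.56 ± 0.177% to 3.52 ± 0.445%.

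Family 6 fell by 2.15 on the log2 scale, close to the fall of the Ighv sum, and its share hardly differed (3.74 ± 0.422% and 3.87 ± 0.186%; p = 0.8, exact permutation test). Family 3 fell by 2.43 with all 6 members lower, and family 8 by 1.63. Family 11 fell by 1.82 in summed reads, while its 2 members changed in opposite directions. Ighv12-3, the single member of family 12 and, like Ighv11-2, known from B-1a cells, fell from 71, 71 and 100 reads to 4, 9 and 7 (-3.29, SE 0.36, edgeR adjusted p = 1.4e-06). The sole member of family 13 fell by 3.22, family 15 did not pass (adjusted p = 0.17), and the sole member of family 16 had no read in any library.

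**Figure D4:**
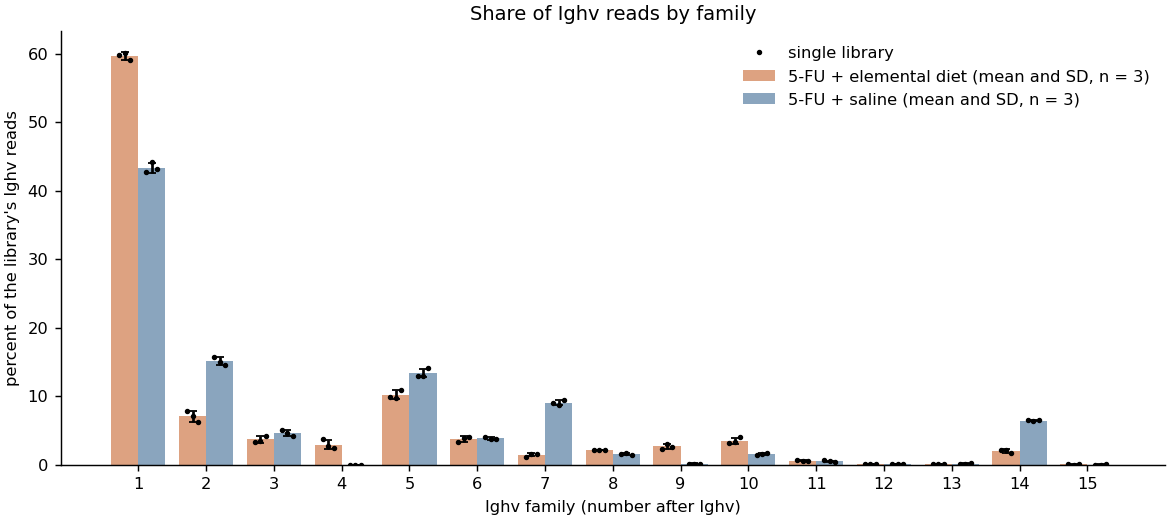
Percent of the library's Ighv reads in each of the 15 families with reads (points are libraries, bars the mean and SD of 3). Family 1 took 59.7% with elemental diet and 43.4% with saline, and families 2, 7 and 14 took less with elemental diet.

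Along the locus, the use of members shifted away from the end near the D, J and constant genes. The members were divided by position into a proximal section (38 genes), a middle section (38) and a distal section (37). The proximal section took 29.1%, 27.5% and 27.5% of the Ighv reads with elemental diet and 47.5%, 45.9% and 47.0% with saline. The distal section took 40.7%, 40.9% and 38.6% with elemental diet and 18.9%, 19.1% and 20.9% with saline. In both of these sections the groups were clearly apart (p = 0.1 each, exact permutation test; adjusted p = 0.111), while the middle section took 31.9 ± 1.86% and 33.6 ± 1.47% (p = 0.3, exact permutation test; adjusted p = 0.3).

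Reads in the proximal section numbered 10255 with elemental diet and 89199 with saline, and in the distal section 14687 and 37420. The distal section also fell in sum, but by less. Of the 34 tested proximal members 30 were lower and 3 higher, with a median log2 fold change of -3.49. The 33 tested middle members comprised 29 lower and 1 higher, with a median of -2.49. Of the 31 tested distal members 19 were lower and 7 higher, with a median of -1.50. Over all tested genes 40.2% passed as lower and 38.0% as higher. All 7 distal members that rose are of family 1, which also fills most of that section. The proximal section holds no member of family 1. The shift along the locus and the change in the family 1 share therefore overlap. The middle section also holds members of family 1, and its share was 31.9% with elemental diet and 33.6% with saline. How far the shift along the locus and the family 1 change are separate was not tested. The share of unique reads was 96.4% for the median proximal member, 98.8% for the middle and 81.3% for the distal, and with unique reads alone the proximal share differed by -19.7 percentage points in place of -18.7.

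Neighbouring members did not always change in the same direction. Among the 88 pairs of called members that follow each other, with members not called passed over, 19 changed in opposite directions. The called members comprised 11 higher and 78 lower, and whether 19 differs from a random order was not tested. Ighv9-3, for example, rose 94.1-fold, and the next gene, Ighv7-3, fell 26.3-fold. In the distal section, Ighv1-81 rose, while Ighv1-82, with 2342, 2021 and 2009 reads with saline and 89, 114 and 147 with elemental diet, fell 14.8-fold.

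**Figure D5:**
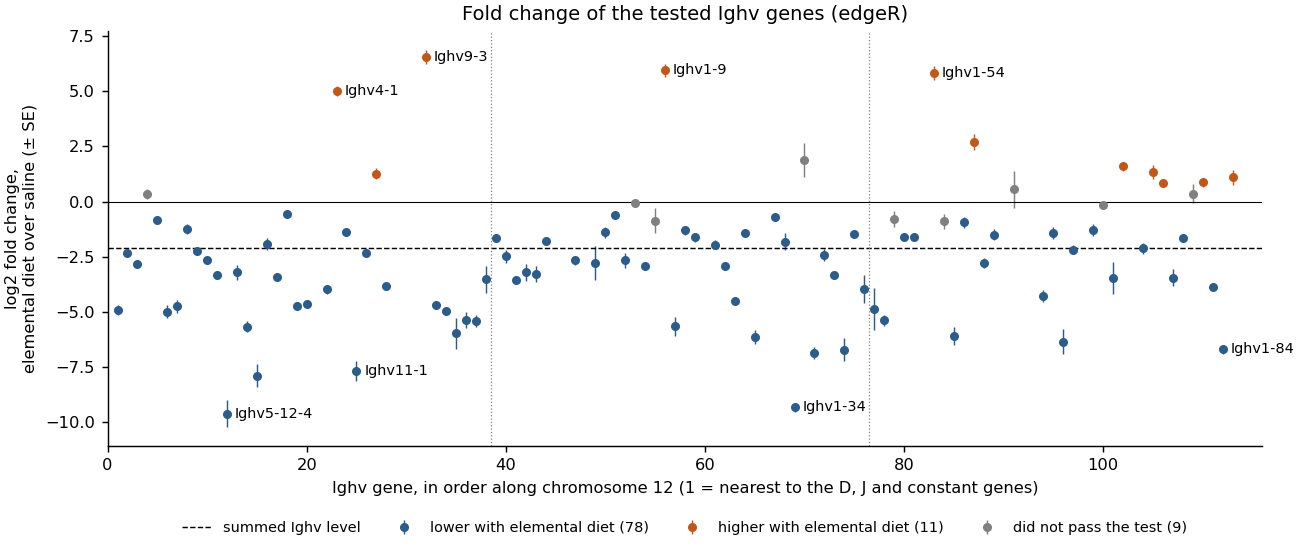
Log2 fold change (elemental diet over saline, ± SE) of the 98 tested Ighv genes in order along chromosome 12, with a dashed line at the change of the summed level (-2.10). Most points lie below 0, and the medians of the proximal, middle and distal sections were -3.49, -2.49 and -1.50.

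The reads assigned to the members differed in kind between the groups. Of the Ighv reads, 91.3%, 91.3% and 92.5% were unique with elemental diet and 89.0%, 88.2% and 88.2% with saline. Reads labelled as intron reads made up 12.2%, 12.9% and 14.6% with elemental diet and 8.39%, 7.41% and 7.98% with saline (p = 0.1, exact permutation test; adjusted p = 0.111). Over all genes the order was the reverse, with 8.64 ± 0.225% intron reads with elemental diet and 14.0 ± 0.341% with saline. The files give each of the 113 members 1 exon and no reads across exons, and which bases their intron reads cover is not stated by the sources. Among the 11 members that rose, the intron share ran from 0.194% for Ighv1-72 to 26.7% for Ighv1-81.

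Near copies held fewer unique reads. Of the 95 members with at least 100 reads, the 26 whose nearest relative was at least 97% identical had a median of 77.8% unique reads, and the 69 others 96.9% (Spearman's rho between identity and unique share -0.81, across genes, as a description). Ighv1-71 and Ighv1-62-2 have the same V exon (100% identity), and 6.39% of the Ighv1-71 reads were unique, so how reads were divided between these 2 is uncertain. With unique reads in place of all reads, all 11 rises were called again, as were 75 of the 78 falls. Of the 11 members that rose, 9 had over 90% unique reads.

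The constant genes that a V region is spliced to fell as well, by different amounts. Of 8 heavy chain constant genes 7 were lower, beside 40.2% of all tested genes. Ighd, the constant gene of immunoglobulin D, fell by 3.45 (SE 0.05) and Igha, that of immunoglobulin A, by 3.38 (SE 0.07) on the log2 scale, more than the summed V genes. The immunoglobulin G genes Ighg1, Ighg2b, Ighg2c and Ighg3 fell by 1.66 (SE 0.28), 1.49 (SE 0.28), 1.65 (SE 0.24) and 1.82 (SE 0.12), less than the summed V genes. Ighe, that of immunoglobulin E, had 10, 9 and 33 reads with elemental diet and 9, 3 and 14 with saline and did not pass (1.30, SE 0.66, edgeR adjusted p = 0.090). Ighe was called higher without the first elemental diet library (1.60, adjusted p = 0.047), and its change was 0.38 without the third.

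Several genes of V gene joining or of the precursor B cell receptor had few or no reads. Rag1 and Vpreb2 had no read in any library, Rag2, whose protein cuts DNA together with that of Rag1, had 3 reads in all, and Igll1, part of the surrogate light chain of precursor B cells, had 5. Of 12 genes in this list 8 could be tested, of which 3 were lower and 2 higher, beside 40.2% and 38.0% of all tested genes. Vpreb3, which is also expressed in mature B cells, fell by 2.65 (SE 0.14, adjusted p = 5.6e-10), and the repair genes Xrcc4 and Dclre1c fell by 0.73 (SE 0.11) and 0.28 (SE 0.08). Prkdc and Nhej1, which act in joining DNA ends in all cells, rose by 0.33 (SE 0.07) and 0.46 (SE 0.16), but neither was called with upper quartile scaling (0.06 and 0.18) or without composition scaling (0.02 and 0.15). Nhej1 also missed the threshold without the second elemental diet library (adjusted p = 0.087), the first saline library (adjusted p = 0.055) or the second saline library (adjusted p = 0.12). Dntt, which adds bases at the joints, had 6, 10 and 5 reads with elemental diet and 13, 13 and 29 with saline (-1.10, SE 0.52, adjusted p = 0.068). It was called lower with upper quartile scaling (-1.37, adjusted p = 0.027) and without composition scaling (-1.41, adjusted p = 0.024), and without the third saline library its change was -0.59.

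All 10 genes for partners of the B cell receptor and B cell identity were lower, beside 40.2% of all tested genes. Their median log2 fold change was -2.71. Cd79a, a signalling chain of the receptor, went from 844 ± 28.4 to 120 ± 10.7 CPM (-2.81, SE 0.06), and Pax5, a B cell transcription factor, from 606 ± 22.7 to 84.9 ± 5.22 (-2.83, SE 0.06). Among 8 genes of antibody secretion and class switching 7 were lower and 1 higher, beside 40.2% and 38.0% of all tested genes. Their median was -1.42. Jchain, the joining chain of secreted immunoglobulin M and A, fell by 2.11 (SE 0.06), the same size as the fall of the summed Ighv level, and Xbp1, a factor of secretory cells, by 1.20 (SE 0.05). Sdc1, a surface marker of plasma cells that epithelial cells also express, rose by 0.88 (SE 0.09). Per Cd79a read there were 3.70 ± 0.276 Ighv reads with elemental diet and 2.26 ± 0.204 with saline.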

How the data were processed

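Polyadenylated RNA was sequenced as 75-base read pairs in 6 libraries, per the labels' protocols. The authors deposited, per the file headers, total and unique read counts per gene with exon and intron reads, RPKM and TPM; the submitters' processing notes name the builds GRCm38 and GRCh37. Aligner, counter and strand: not given in the sources used here. TPM was not used, and RPKM only to set members side by side per length.

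Total gene reads were tested with edgeR 4.0.16 (quasi-likelihood, robust, TMM scaling, filterByExpr, Benjamini-Hochberg over 18303 genes, threshold 0.05). CPM is TMM-scaled. Library measures were compared by exact permutation tests. Scripts were tested on simulated data. Alternatives were unique or exon reads, other scalings, no filter, DESeq2 1.42.0, a replicate block and leaving out each library. Intervals and floors (3 reads) cover counting error only. Read division among near copies limits single members. The reference V exons are of GRCm38, while the mice were ICR, whose alleles can differ.

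Members named were the 8 most abundant per group, the 8 largest falls and rises with at least 1 CPM and no overlap, those over 5% of a library, up to 8 called against their family, and both ends of the locus. Others (Ighv7-1, Ighv12-3, Ighv9-2, Ighv1-71, Ighv1-62-2, Ighv1-62-3, Ighv1-63, Ighv2-3, Ighv10-3, Ighv8-12, Ighv1-36 and Ighv1-55) were picked later, with their values known. The members and lists were chosen with earlier results of these data known. Promoter and protein sequences are not used here.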

Additional observations from a re-analysis of the deposited data

How the results depend on the processing

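Over all alternatives 75 to 84 members were lower and 10 to 12 higher, and 12 or 13 families lower and 2 higher. Leaving out each library in turn gave 78 to 81 lower and 11 higher. Over all genes, other scalings moved the median change on the log2 scale from -0.08 to -0.35 (upper quartile), -0.39 (none) and -0.04 (RLE). The summed level stayed between -2.41 and -2.05 on the log2 scale. The difference in the share of the most used gene turned to -1.56 percentage points with unique reads, and the cause was not tested. The family 6 share turned to 0.175 with exon reads and ran from -0.284 to 0.117 on leaving out each library, turning without the first elemental diet library. Ighv1-80, not called, turned without the second elemental diet library (log2 range -0.165 to 0.648). Lig4, a ligase of DNA end joining that was not called either, turned to -0.0733 with exon reads, -0.208 with upper quartile scaling, -0.245 without scaling, and on leaving out each library ran from -0.0875 (without the third elemental diet library) to 0.159. Family 15 was called lower without the third elemental diet library (-1.67). Same-numbered libraries did not deviate together (r = 0.117, -0.008 and 0.058), so the numbers were not taken as pairs. With the replicate block 78 members were lower and 11 higher, all of them the same genes, and 12 families lower and 2 higher; Ighg1 (adjusted p = 0.052) and Ighg2b (adjusted p = 0.065) were not called. Depth limits the 15 untested members and the size of the deepest falls.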
